A study of Mus musculus with 24 samples.

Results

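Cytosolic ribosomal protein genes encode the protein part of the ribosomes that translate nuclear mRNA. They were taken as the protein-coding genes of the mouse assembly GRCm38.p6 whose symbol is Rpl or Rps with a number and at most 1 of the letters a, l, x or y, together with Rplp0, Rplp1, Rplp2 and Rpsa. This gave 81 of 21887 protein-coding genes on the main chromosomes, 50 of the large subunit and 31 of the small subunit. The rule used names only, and no measured value, but the members were chosen with earlier results of these data known. Each was described by the CUT&RUN peaks that overlap the gene or 5 kb on either side by at least 1 bp. CUT&RUN uses an antibody to bring a nuclease to a chromatin protein, so that the DNA around it is cut free and sequenced.

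The series asked where the transcription factors SOX8 and SOX9 lie in the mouse retina, on postnatal day 2 (P2) and on postnatal day 17 (P17), beside the promoter mark H3K4me3 and the active promoter and enhancer mark H3K27ac. The 24 libraries came from retina, with 600000 nuclei in a reaction, and the labels give tissue, age and antibody but no strain or genotype. Each age had 4 SOX8 libraries, made with 2 antibodies, and every other target (SOX9, both histone marks and a nonspecific IgG) had 2. The values below come from 8 deposited lists of peaks, so that every target has 1 at each age. The SOX8 lists are labelled as combined and the others are not, and how they were combined is not given. No IgG list was analysed here. Whole retina was used, so a peak is not tied to a cell type.

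A list holds positions only and names no replicate, so each value stands once, no spread between libraries is known and no difference between ages or targets was tested. Depth is unknown. The lists held 2653 P2 SOX8, 5476 P2 SOX9, 9134 P2 H3K4me3 and 287845 P2 H3K27ac peaks, against 2400, 2855, 9629 and 29909 at P17. Intervals beside shares are 95% Wilson intervals and cover counting error over genes only. As a check of the labels by H3K4me3, 4 of 6 rod photoreceptor markers had a peak at P2 and 6 of 6 at P17. Müller glia markers had one in 3 of 3 at P2 and in 1 of 3 at P17 (Rlbp1 and Slc1a3 had none). Progenitor markers had one in 3 of 3 and then 2 of 3, bipolar cell markers in 0 of 2 and then 2 of 2, and markers of other tissues in 0 of 5 at both ages.

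Ribosomal protein genes are transcribed in every growing cell, and their products are needed in equal amounts. Many of their transcripts begin with a C followed by a run of pyrimidines, the 5' terminal oligopyrimidine (TOP) tract, through which the mTOR pathway controls translation. Their promoters usually lie in CpG-rich DNA and are known for binding sites of general factors such as ETS proteins, YY1 and SP1. SOX9 is expressed in retinal progenitors and later in Müller glia, and SOX8 is its close relative.

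Promoter sequences are shown for 8 members that the results below turn on, from 100 bases before the RefSeq start to 20 bases from it onward, 5' to 3' on the gene's strand in GRCm38.p6. The RefSeq promoter table matched 61 of the 81 members. Capitals mark CCGGAAG (ETS), AAGATGGC (YY1), GGGCGG (SP1), ACAAAG and AACAAT (SOX), each on either strand, and a pyrimidine run at the start. Such a match is a description of letters and not a binding site. Rps19, Rpl10a and Rpl41 had SOX8 and SOX9 peaks over the start at both ages, and Rps6 had SOX9 peaks over it at both ages. Rpl27a and Rps9 had a SOX9 peak over the start at P2 only. Rps10 and Rpl35 had no SOX peak at either age.
Rps19 (chr7:24884492-24884611, strand plus): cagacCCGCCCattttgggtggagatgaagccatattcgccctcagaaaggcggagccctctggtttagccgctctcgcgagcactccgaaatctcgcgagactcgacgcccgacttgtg
Rpl10a (chr17:28328371-28328490, strand plus): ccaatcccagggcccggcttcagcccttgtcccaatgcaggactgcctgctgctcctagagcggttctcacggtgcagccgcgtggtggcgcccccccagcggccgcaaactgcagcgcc
Rpl41 (chr10:128549149-128549268, strand minus): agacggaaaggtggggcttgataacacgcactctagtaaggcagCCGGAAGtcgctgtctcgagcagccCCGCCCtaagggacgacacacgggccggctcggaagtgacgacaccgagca
Rps6 (chr4:86857348-86857467, strand minus): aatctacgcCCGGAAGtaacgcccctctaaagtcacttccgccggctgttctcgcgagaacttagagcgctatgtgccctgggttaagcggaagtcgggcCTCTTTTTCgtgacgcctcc
Rpl27a (chr7:109519095-109519214, strand plus): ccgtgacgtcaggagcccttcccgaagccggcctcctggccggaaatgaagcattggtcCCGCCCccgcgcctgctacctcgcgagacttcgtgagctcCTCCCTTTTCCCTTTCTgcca
Rps9 (chr7:3703941-3704060, strand plus): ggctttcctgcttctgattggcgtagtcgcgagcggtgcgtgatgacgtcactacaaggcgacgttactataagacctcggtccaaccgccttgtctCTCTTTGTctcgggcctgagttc
Rps10 (chr17:27635225-27635344, strand minus): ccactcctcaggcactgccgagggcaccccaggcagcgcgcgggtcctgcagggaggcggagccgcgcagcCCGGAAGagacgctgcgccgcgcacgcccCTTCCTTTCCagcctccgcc
Rpl35 (chr2:39005112-39005231, strand minus): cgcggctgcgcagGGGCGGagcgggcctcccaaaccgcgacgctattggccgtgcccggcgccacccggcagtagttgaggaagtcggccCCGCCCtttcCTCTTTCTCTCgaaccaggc

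The pyrimidine run is seen in Rps6, Rpl27a and Rps9 as in Rps10 and Rpl35, so genes with and without a SOX peak both carry it. Rps9 is the gene among these whose capitals include a SOX word, read on the opposite strand at its start as CTTTGT. The start shown for Rps19, Rpl10a and Rpl41 had no such run. Sequences and their features were read at 1 listed start for each gene, the furthest upstream. A peak counted as over the start when it covered any listed start of the gene, so the 2 can refer to different starts.

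Nearly all ribosomal protein genes carried both histone marks at both ages. H3K4me3 was found at 79 of 81 members at P2 (97.5%, interval 91.4 to 99.3), against 49.3% of all protein-coding genes. At P17 it was found at 79 again, the same genes, against 50.9%. H3K27ac was found at 80 of 81 at P2 (98.8%, interval 93.3 to 99.8), against 81.8%, and at 78 of 81 at P17 (96.3%, interval 89.7 to 98.7), against 57%. With the P2 H3K27ac list cut to its widest peaks in the number of the P17 list, 29.6% of members had it, against 40.5% of all genes. Where the start is listed, H3K4me3 covered it in 58 of 61 members at P2 (44.8% of all listed starts) and in 57 at P17 (46%). H3K27ac covered it in 58 at P2 (60.7%) and in 57 at P17 (46.6%).

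SOX9 was at more ribosomal protein genes at P2 than at P17. It was found at 46 of 81 members at P2 (56.8%, interval 45.9 to 67), against 27.7% of all protein-coding genes, and at 18 at P17 (22.2%, interval 14.5 to 32.4), against 15.7%. SOX8 was found at 16 members at P2 (19.8%, interval 12.5 to 29.7), against 15.1%, and at 13 at P17 (16%, interval 9.63 to 25.5), against 13%. The SOX8 shares thus lay near those of all genes, and the lower end of the P2 SOX9 interval lay above the share of all genes. A peak present in fewer cells and a weaker signal in each cell cannot be told apart in these lists.

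Restricting the comparison to genes with H3K4me3 left the members' P2 SOX9 share nearly as it was and raised the background. Among the 10788 protein-coding genes with a P2 H3K4me3 peak, 53.3% had P2 SOX9, and among the 79 members with that mark 46 did (58.2%, interval 47.2 to 68.5). The same restriction put P2 SOX8 at 16 of 79 members (20.3%, interval 12.9 to 30.4), against 29.8%. At P17 it put SOX8 at 13 of 79 (16.5%, interval 9.88 to 26.1), against 23.1%, and SOX9 at 18 of 79 (22.8%, interval 14.9 to 33.2), against 27.4%. Each of these 4 background shares lay inside the members' interval, and 3 of the 4 were above the members' share. Ribosomal protein genes are short, with a median length of 3175 bp against 17169 bp over all genes. Among genes of 1583 to 5369 bp with the mark, an alternative chosen after seeing the data, P2 SOX9 was at 39 of 64 members (60.9%, interval 48.7 to 71.9), against 56.2%. P2 SOX8 was at 13 of 64 (20.3%, interval 12.3 to 31.7), against 34.1%. At P17 SOX8 was at 11 of 64 (17.2%, interval 9.88 to 28.2), against 31.6%, and SOX9 at 13 of 64 (20.3%, interval 12.3 to 31.7), against 37.3%. With gene length taken into account as well, the background shares of P2 SOX8, P17 SOX8 and P17 SOX9 thus lay above the members' intervals. All 50 separate P2 SOX9 peaks at members overlapped a P2 H3K4me3 peak. All 17 P2 SOX8 peaks overlapped both a P2 SOX9 and a P2 H3K4me3 peak. At P17, 16 of 18 SOX9 peaks and 14 of 15 SOX8 peaks overlapped P17 H3K4me3. These overlaps were not counted over all SOX peaks, so they are not read as a trait of the members. By window, 5750 of all 6073 genes with P2 SOX9 and 3219 of 3302 with P2 SOX8 also had P2 H3K4me3. At P17, 3053 of 3445 genes with SOX9 and 2572 of 2850 with SOX8 had the mark. Whether SOX peaks at these promoters exceed an IgG signal was not tested.

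**Figure D1:**
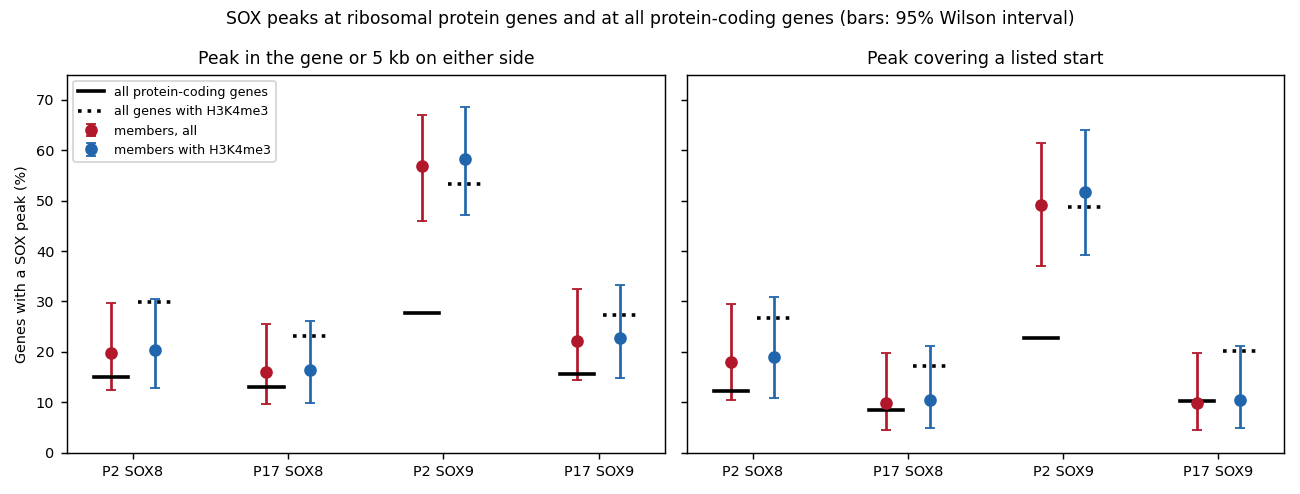
Share of genes with a SOX peak (%, vertical axis) in each of the 4 SOX lists, for peaks in the gene or its 5 kb flanks (left) and peaks over a listed start (right). Red points are all members and blue points members with H3K4me3 of the same age, with bars for the 95% Wilson interval over genes. Solid lines are the same shares over all protein-coding genes, and dotted lines those over all genes with H3K4me3 of the same age. On the left, the red P2 SOX9 point of 56.8% lies above its solid line at 27.7%. The blue point of 58.2% lies close to its dotted line at 53.3%.

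Peaks over the start showed the same order of the ages. P2 SOX9 covered the start of 30 of 61 members (49.2%, interval 37.1 to 61.4), against 22.8% of all listed starts, and P17 SOX9 covered 6 (9.84%, interval 4.59 to 19.8), against 10.3%. P2 SOX8 covered 11 (18%, interval 10.4 to 29.5), against 12.2%, and P17 SOX8 covered 6 (9.84%), against 8.4%. Among starts covered by H3K4me3 of the same age, P2 SOX9 covered 30 of 58 members (51.7%, interval 39.2 to 64.1), against 48.8%, and P2 SOX8 covered 11 of 58 (19%, interval 10.9 to 30.9), against 26.8%. At P17 SOX9 covered 6 of 57 (10.5%, interval 4.91 to 21.1), against 20.2%. P17 SOX8 covered 6 of 57 (10.5%), against 17.2%.

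Of the 30 starts that SOX9 covered at P2, 6 were covered at P17 as well (20%, interval 9.51 to 37.3), and the 34.9% of all genes' P2 starts lies inside that interval. By the window of gene and flanks, 16 of 46 members with P2 SOX9 had it at P17 (34.8%, interval 22.7 to 49.2), against 41.1%. The SOX9 start peak was thus at P2 only in 24 of 61 members (39.3%), against 14.9% of all listed starts. It was at both ages in 6 (9.84%), against 7.98%, and at P17 only in 0 of 61 (interval up to 5.92%), against 2.32%. Of the 58 members' starts that H3K4me3 covered at P2, 57 were covered at P17 as well (98.3%), against 92.3% of all genes' P2 starts. For SOX8 the start was covered at P2 only in 6 members (6.18% of all listed starts), at both ages in 5 (6%) and at P17 only in 1 (2.4%). By the wider window, SOX9 was found at P2 only in 30 of 81 members (37%, interval 27.3 to 47.9), against 16.4%. It was at both ages in 16 (19.8%), against 11.4%, and at P17 only in 2 (2.47%), against 4.35%. SOX8 was at P2 only in 8 members, against 7%, at both ages in 8, against 8.08%, and at P17 only in 5, against 4.94%. Shares at P2 only, P17 only or both ages were not counted among genes with H3K4me3, so they are not read as a trait of the members.

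**Figure D2:**
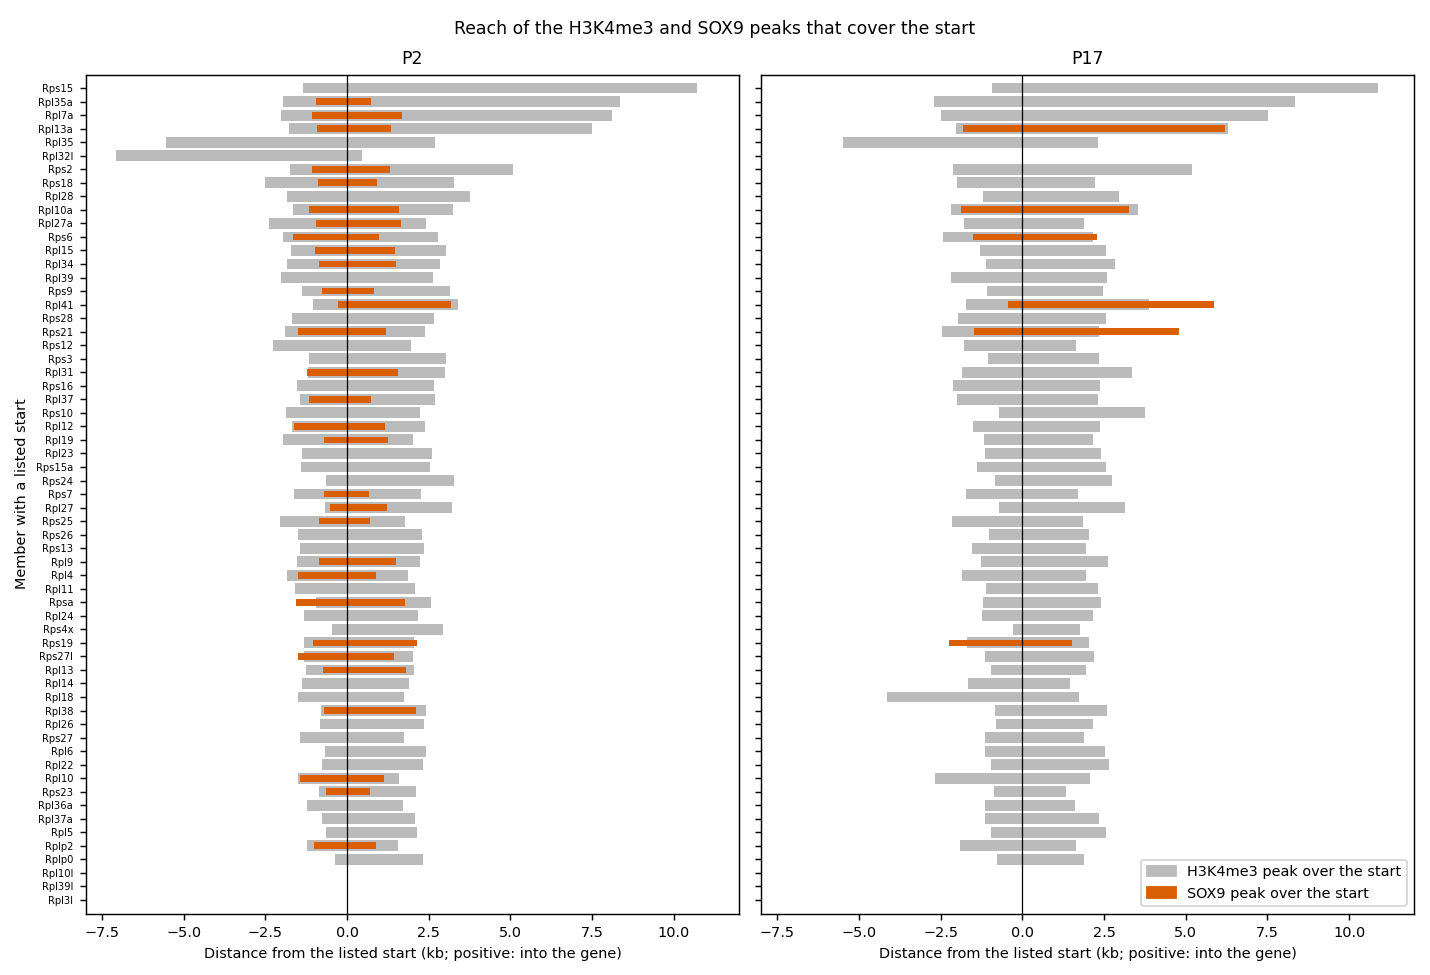
Reach of the H3K4me3 (grey) and SOX9 (orange) peaks that cover the start of each of the 61 members with a listed start (rows), as distance from the start in kb on the gene's strand (horizontal axis), at P2 (left) and P17 (right). Rows follow P2 H3K4me3 width, widest at the top; 30 members have an orange bar at P2 and 6 at P17, while the grey bars remain in 57.

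The 6 members whose start SOX9 covered at both ages were Rpl10a, Rpl13a and Rpl41 of the large subunit and Rps6, Rps19 and Rps21 of the small subunit. The SOX9 peak over the start of Rps19, a small-subunit protein whose human counterpart is mutated in Diamond-Blackfan anaemia, was 3209 bp wide at P2 (chr7:24883536-24886744) and 3763 bp at P17 (chr7:24882339-24886101). Its SOX8 peaks were 2580 bp at P2 (chr7:24883167-24885746) and 1631 bp at P17 (chr7:24883600-24885230). No other protein-coding gene lay under any of these 4 peaks, so the SOX peaks at Rps19 are not shared with a neighbour. Rps6, the small-subunit protein phosphorylated by S6 kinases downstream of mTOR, had a 2637 bp SOX9 peak at P2 (chr4:86856391-86859027) and a 3813 bp one at P17 (chr4:86855074-86858886), also over no other protein-coding gene, and no SOX8 peak.

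At Rpl10a, a large-subunit protein, the SOX9 peak over the start was 2761 bp at P2 and 5159 bp at P17, where it reached the neighbouring gene Tead3. Its SOX8 peaks were 2009 and 2237 bp, over no other gene. At Rpl41, which encodes the shortest of the ribosomal proteins, SOX9 peaks of 3459 bp at P2 and 6283 bp at P17 also lay over Zc3h10, and SOX8 peaks were 2850 and 1194 bp. At Rpl13a the SOX9 peak over the start was 2266 bp at P2 and 8034 bp at P17. At Rps21 the SOX9 peak was 2700 bp at P2 and 6282 bp at P17, over Cables2 as well. All 6 start peaks were wider at P17, with a median ratio of 1.84. Of the 1396 genes whose start SOX9 covered at both ages, 74.8% had a wider start peak at P17, with a median ratio of 1.30.

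For the 24 starts that SOX9 covered at P2 only, peak widths ran from 1339 bp at Rps23 to 3321 bp at Rpsa. Rpsa encodes the laminin receptor that is also a small-subunit protein, and its P2 SOX9 peak (chr9:120126205-120129525) lay over no other protein-coding gene. H3K4me3 at Rpsa was 3501 bp at P2 and 3631 bp at P17, so this mark was listed at both ages and SOX9 at P2 only. The same held at Rpl27a, with a 2618 bp P2 SOX9 peak over its start and H3K4me3 of 4804 and 3678 bp. Rps9 had a 1613 bp P2 SOX9 peak over the start, which holds the SOX word shown above, and H3K4me3 of 4544 and 3545 bp. Rpl31 had a 2776 bp peak, Rpl12 a 2804 bp peak and Rpl38 a 2821 bp peak over the start at P2. Rpl7a had both SOX9 (2770 bp) and SOX8 (2097 bp) over its start at P2, in a peak shared with Med22.

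The SOX8 peak over the start was found at both ages at Rpl10a, Rpl19, Rpl27, Rpl41 and Rps19. At Rpl27 it was 1635 bp at P2 and 2235 bp at P17, over no other gene. Rps16 was the member whose start SOX8 covered at P17 and not at P2 (3226 bp, chr7:28348262-28351487). Rps16 had no SOX9 peak at either age.

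A SOX peak of any kind was found in the windows of 50 members, and 31 had none, against 66.1% of all genes with none. By age, 27 members had SOX peaks at P2 only (14.4% of all genes), 4 at P17 only (5.48%) and 19 at both ages (14%). These patterns were likewise not counted among genes with H3K4me3. Each of the 16 members with P2 SOX8 also had P2 SOX9, and 30 had SOX9 alone. At P17, 8 members had both factors, 5 SOX8 alone and 10 SOX9 alone. Genes with both factors or 1 alone were not counted over all genes, so these counts are not read as a trait of the members. A peak in the window is not always a peak at the member, since 60 of 81 windows hold another protein-coding gene. Restricted to peaks that overlap the member and no other protein-coding gene, P2 SOX9 was at 27 of 81 members (33.3%, interval 24 to 44.1), against 16.7%. P17 SOX9 was at 3 (3.7%, interval 1.27 to 10.3), against 8%. P2 SOX8 was at 7 (8.64%), against 8.66%, and P17 SOX8 at 8 (9.88%), against 7.15%. These backgrounds are over all protein-coding genes and were not restricted to those with H3K4me3.

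**Figure D3:**
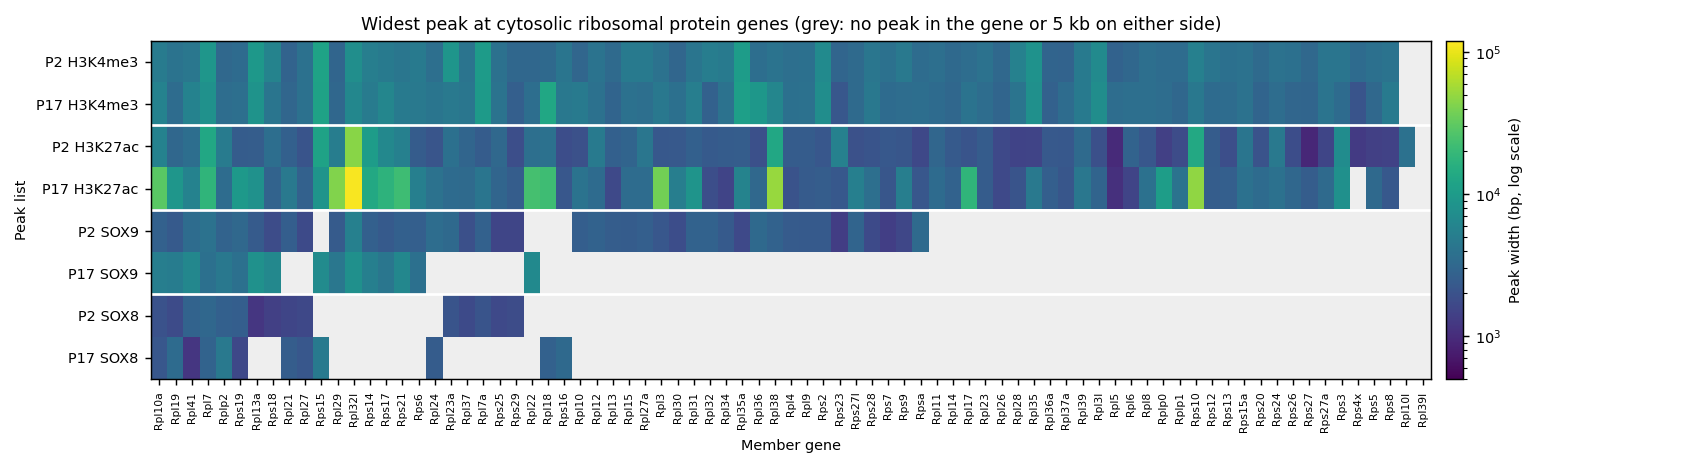
Width in bp (colour, log scale) of the widest peak at 79 of the 81 members (columns) in each of the 8 lists (rows), with grey where the gene and its 5 kb flanks hold no peak. Members are ordered by the number of SOX lists with a peak; each H3K4me3 row is filled in 77 columns and the P2 SOX9 row in 44.

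The members with a peak in all 4 SOX lists were Rpl7, Rpl10a, Rpl19, Rpl41, Rplp2 and Rps19, but not all of them at the member's own start. Rplp2 encodes an acidic protein of the ribosomal stalk, which recruits translation factors. Over its start it had P2 peaks of 1344 bp for SOX8 and 1908 bp for SOX9, and no P17 SOX peak covered it. At Pnpla2, outside Rplp2, the window held SOX peaks at both ages, 2686 bp for SOX8 and 2877 bp for SOX9 at P2 and 4596 and 4476 bp at P17. At Rpl19 the P17 SOX9 peaks of 4660 and 5045 bp lay over Cacnb1 and Stac2, and SOX8 covered the Rpl19 start at both ages (1767 and 1654 bp). At Rpl7 the 4 SOX peaks, 2844 to 3956 bp wide, also lay over Rdh10, and the start of Rpl7 was not in the promoter table. Of the 4 members with SOX peaks at P17 only, Rps16 had its peak over its own start. The Rpl18 SOX8 peak lay over part of Rpl18 and over Sphk2, but not over the Rpl18 start. The Rpl22 SOX9 peak lay over Chd5, 4070 bp from Rpl22. At Rps15 the SOX9 peak overlapped both Rps15 and Apc2, and a 4726 bp SOX8 peak lay at Apc2, outside Rps15. A 731 bp SOX8 peak overlapped Rps15 and no other gene, and none of these covered the Rps15 start.

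The other stalk proteins, Rplp0 at its base and Rplp1, were among the 31 members with no SOX peak at either age. Rplp0 had H3K4me3 over its start of 2714 bp at P2 and 2669 bp at P17, and Rplp1 had peaks of 3451 and 3087 bp. Rpl5 and Rpl11, which bind the 5S RNA and can hold the p53 regulator MDM2, had no SOX peak either. Their H3K4me3 peaks were 2783 and 3531 bp at Rpl5 and 3684 and 3421 bp at Rpl11. H3K27ac at Rpl5 was among the narrowest of the members at both ages, 967 bp at P2 and 1064 bp at P17.

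By subunit, P2 SOX9 was at 30 of 50 large-subunit and 16 of 31 small-subunit genes (60% and 51.6%), and P17 SOX9 at 10 and 8. P2 SOX8 was at 11 and 5, and P17 SOX8 at 10 and 3. Introns of many ribosomal protein genes hold small nucleolar RNAs, and 29 members contain at least 1 such gene. P2 SOX9 was at 18 of these 29 (62.1%) and at 28 of the other 52 (53.8%), and P17 SOX9 at 4 and 14. The intervals of both P2 pairs overlap.

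Of the 4 X-linked members, Rpl10 had a SOX peak, P2 SOX9 over its start (2549 bp). Rpl36a, Rpl39 and Rps4x had none. H3K4me3 over the start of Rps4x was 3412 bp at P2 and 2059 bp at P17, the narrowest of all members at P17, and Rps4x had no H3K27ac peak at P17.

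Of the 5 members named as paralogues (symbols ending in l), H3K4me3 covered the start of 2 at P2 (Rpl32l and Rps27l) and of 1 at P17 (Rps27l), against 44.8% and 46% of all listed starts. Rpl39l, a copy of Rpl39 known from testis, had no peak in any of the 8 lists. Rpl10l, a retrogene of Rpl10 also known from testis, had no SOX or H3K4me3 peak, and its 2 P2 H3K27ac peaks lay 3304 and 4189 bp from the gene. Rpl3l, known from heart and skeletal muscle, had no peak over its start, and the H3K4me3 peaks in its window lay over Rps2 and Ndufb10 or over Msrb1. Rpl32l lies at Map7, and its P2 H3K4me3 peak of 7530 bp, its SOX9 peaks of 5499 bp at P2 and 7890 bp at P17 and its P17 H3K27ac peak of 113244 bp were at Map7 too. Rps27l, a broadly expressed p53 target, was the paralogue with the pattern of the main genes, with P2 SOX9 (2926 bp) and H3K4me3 (3339 and 3356 bp at P2 and P17) over its start.

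H3K4me3 peaks were of similar width at both ages. The median over members was 3961 bp at P2 and 3861 bp at P17, against 3682 and 3885 bp over all genes with a peak. The median ratio of P17 to P2 was 0.978 over the 79 members, against 1.05. A peak at least 1.5-fold wider at P17 was found at 4 members (5.06%), against 10.2%, and one at least 1.5-fold narrower at 3 (3.8%), against 4.65%. The wider ones were Rpl18 (ratio 4.04), Rpl36 (2.49), Rpl38 (1.55) and Rpl10 (1.54), and the narrower ones Rpl23a (0.526), Rpl32 (0.541) and Rps4x (0.603). These ratios take the widest peak of a window, and of these 7 members Rpl10 and Rps4x are those whose widest peak lay over no other protein-coding gene at both ages. The 13090 bp P17 peak of Rpl18 lay over Car11, Dbp and Sphk2, 3856 bp from the member.

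The widest P2 H3K4me3 peaks were at Rps15 (12073 bp), Rpl35a (10318 bp) and Rpl7a (10133 bp), each over the member's start and at least 1 other gene, and the narrowest at Rpl5 (2783 bp), Rpl21 (2836 bp) and Rpl37a (2838 bp). At P17 the widest were at Rpl18 (13090 bp), Rps15 (11807 bp) and Rpl35a (11065 bp), and the narrowest at Rps4x (2059 bp), Rps23 (2220 bp) and Rps29 (2640 bp). Over the start, H3K4me3 reached further into the gene than away from it. At P2 the median reach was 1472.5 bp upstream and 2399 bp downstream, and the downstream side was the longer in 54 of 58 members (93.1%), against 78.3% of all genes. At P17 it was the longer in 47 of 57 (82.5%), against 79.1%.

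**Figure D4:**
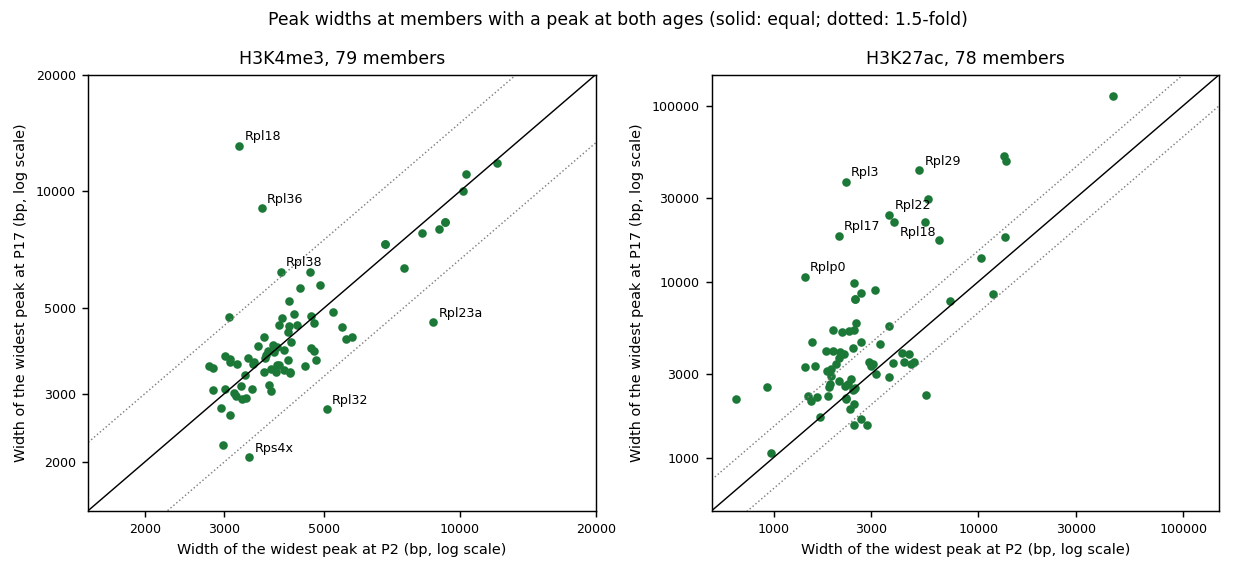
Width in bp of the widest peak at P17 (vertical, log scale) against P2 (horizontal, log scale) for members with a peak at both ages, H3K4me3 on the left (79 members) and H3K27ac on the right (78), with the solid line at equal widths and dotted lines at 1.5-fold. H3K4me3 points lie along the solid line with 7 outside the dotted lines, while 40 H3K27ac points lie above the upper dotted line.

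H3K27ac peaks were wider at P17 at most members. The median ratio was 1.52 over 78 members, against 1.30 over all genes with H3K27ac at both ages. A change of at least 1.5-fold was seen upward at 40 of 78 (51.3%), against 42.5%, and downward at 4 (5.13%), against 22.2%. Over the start alone the median ratio was 1.28 in 57 members, against 1.57. The order of members and all genes thus turned between these measures. The highest ratios, Rpl3 (16.5), Rpl17 (8.75), Rpl29 (8.35), Rplp0 (7.54) and Rpl22 (6.51), came from P17 peaks of 10678 to 37008 bp and, at Rpl29, 42866 bp. Those of Rpl3, Rpl29 and Rpl22 lay outside the member, at Syngr1, at a group of genes with Pcbp4 and at Icmt. The widest P17 H3K27ac peaks in members' windows were at Rpl32l (113244 bp), Rpl38 (51658 bp) and Rps10 (48460 bp), and those of Rpl38 and Rps10 lay 99 and 431 bp outside the gene. The narrowest were at Rpl5, Rpl6 (1527 bp) and Rpl34 (1532 bp). At P2 the widest were at Rpl32l (45260 bp), Rps10 (13561 bp) and Rpl7 (13465 bp), and Rps27 (929 bp) and Rpl5 were among the narrowest. The P2 list holds 287845 peaks and the P17 list 29909, so ratios of this mark compare lists of unlike size.

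In windows with SOX9 at both ages, the widest SOX9 peak was wider at P17 in 15 of 16 members, with a median ratio of 1.85, against 1.52. It was at least 1.5-fold wider in 12 of 16 (75%), against 50.6%, and at least 1.5-fold narrower in 0, against 3.29%. At Rps18, Rpl19 and Rpl29 the widest peaks of the 2 ages lay at different sites, and neighbouring members could share a peak. These ratios are therefore not all of 1 peak that widened. Median SOX9 widths were 2543 bp at 46 members at P2 and 5809 bp at 18 at P17, close to the 2666 and 5501 bp of all genes with a SOX9 peak. Members with P2 SOX9 over the start had a median P2 H3K4me3 width there of 4111.5 bp (30 starts), and those without one 3804 bp (28 starts). Over all genes the same medians were 4055 and 3216 bp.

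Among other genes of the translation machinery, the 7 ribosome proteins that the naming rule left out had P2 SOX9 in 4 (57.1%), among them Fau and Rps3a1, and H3K4me3 in all 7. Mitochondrial ribosomal proteins, which build the separate ribosome of mitochondria, had H3K4me3 in 74 of 78 at P2 and P2 SOX9 in 22 (28.2%). Both families had P2 H3K4me3 at nearly all members, with a median width of 3961 bp in the cytosolic and 3208.5 bp in the mitochondrial family. The P2 SOX9 share, with or without the mark, was 56.8% in the cytosolic and 28.2% in the mitochondrial family. Among genes with P2 H3K4me3 it was 58.2% in the cytosolic family and 53.3% over all genes. It was not counted on that base in the mitochondrial family. Whether the width of the mark goes with the difference between the 2 families was not tested. Translation factors had P2 SOX9 in 23 of 38 (60.5%) and P2 SOX8 in 19 (50%), the latter above the members' 19.8%. Ribosome biogenesis genes had P2 SOX9 in 17 of 36 (47.2%) and P2 SOX8 in 10 (27.8%). At P17, SOX9 was at 13 mitochondrial ribosomal protein genes (16.7%), 14 translation factors (36.8%) and 8 biogenesis genes (22.2%), and SOX8 at 14 (17.9%), 10 (26.3%) and 6 (16.7%).

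**Figure D5:**
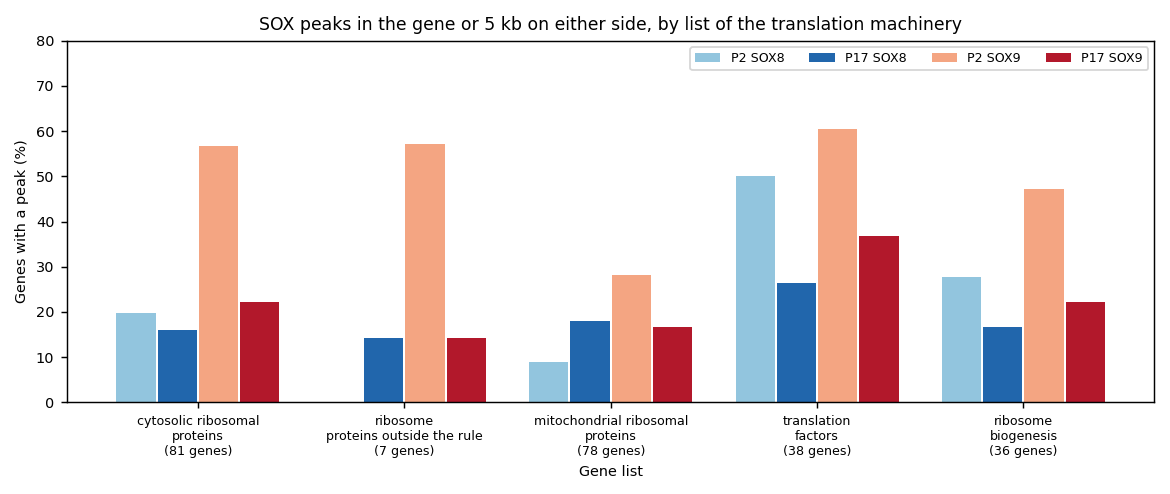
Share of genes (%, vertical axis from 0) with a SOX peak in the gene or its 5 kb flanks, for 5 lists of translation genes (horizontal axis), with 1 bar for each SOX list and no error bars, since each list gives 1 value. P2 SOX9 stands at 56.8% of cytosolic and 28.2% of mitochondrial ribosomal protein genes, and P2 SOX8 is highest in translation factors at 50%.

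Ribosomal protein genes have many processed pseudogenes of near-identical sequence, so reads of one could in principle be placed at another. Of 317 pseudogenes named after ribosomal proteins, none had a SOX peak within its body in any of the 4 SOX lists and 1 had an H3K4me3 peak there at each age (0.315%). The members' bodies had P2 SOX9 in 42 and P2 H3K4me3 in 78. With 5 kb on either side, P2 SOX9 was at 9 pseudogenes (2.84%) and P2 H3K4me3 at 18 (5.68%). H3K27ac was found within 68 pseudogenes at P2 (21.5%) and 16 at P17. How reads with several matches were treated is not given in the sources used here, and whether reads were misplaced was not tested.

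Of the sequence features that the choice by name did not use, some were in a higher share of members than of all promoters. Others were in a lower share, and none of these differences was tested. Over the 300 bases from 250 before to 50 after the start, CCGGAAG was found on either strand in 24 of 61 members (39.3%), against 11.9% of 17492 promoters. A run of at least 5 pyrimidines that begins with C within 5 bases of the start was found in 28 members (45.9%), against 18.8%, with a median length of 7.5 bases and a longest of 17, at Rpl27a. AAGATGGC was found in 5 (8.2%), against 3.21%, and GGGCGG in 35 (57.4%), against 46.3%. TATAAA was found in 7 (11.5%), against 13.3%, and CCAAT in 19 (31.1%), against 39.2%. The median GC content was 57%, against 56.3%, with 21 CpG against 13.

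The SOX words were found in a lower share of members than of all promoters, a difference that was not tested. ACAAAG was found in 7 of 61 (11.5%), against 16.8%, and AACAAT in 2 (3.28%), against 9.5%. At least 1 of them was found in 8 (13.1%), against 24.3%. Of the 33 members in the promoter table with P2 SOX9 in the window, 5 held one, and of the 28 without, 3 did. CCGGAAG was found in 16 of the 33 and 8 of the 28, and the pyrimidine run in 18 and 10. That a word is not found says only that these letters are not in the 300 bases.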

How the data were processed

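CUT&RUN peak lists for SOX8, SOX9, H3K4me3 and H3K27ac in mouse retina at P2 and P17 were analysed. The authors deposited chromosome, start and end positions with a score of 0 in every peak, so width is the measure left. Bowtie2, SEACR and GRCm38 are named without version or role, per the submitters' processing notes. The peak threshold, the use of IgG and the way libraries were combined are not given in the sources used here. Positions are printed counted from 1.

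Gene ends, symbols and listed starts came from RefSeq tables of GRCm38.p6. Where a gene had several listed starts, a peak over any of them counted, and sequence features were read at the furthest upstream. A gene had a peak when one overlapped it or its 5 kb flanks by at least 1 bp, and the widest such peak gave its width. Shares of members stand beside the share of all protein-coding genes, with 95% Wilson intervals (scipy 1.17.1). Each list is 1 value per target and age, so no test was made. No list was pooled or left out here, and the overlap procedure was tested on simulated data. A change in width was counted from 1.5-fold.

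Named genes were the paralogues, members with a peak in all 4 SOX lists, with SOX peaks at 1 age only (the 10 with the widest SOX peak where there were over 20) or without H3K4me3, the 3 widest and 3 narrowest per histone mark list, X-linked members and Rplp0, Rplp1, Rplp2, Rpsa, Rps6, Rps19, Rpl5 and Rpl11. Others named above were chosen after their values were seen. The members and lists were chosen with earlier results of these data known. Alternatives were other flanks, at least 50% of the peak inside the window, the wider 50% of a list, listed starts, the widest P2 H3K27ac peaks, other backgrounds and summed bases. Some members and markers, 2 of them members missing from the plot of widths by member, are counted in every value but not reported by name here.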

Additional observations from a re-analysis of the deposited data

How the results depend on the processing

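With flanks of 0, 1 or 10 kb, or with at least 50% of a peak inside the window, the share of members with a peak stayed within 1.5 times its value in all 8 lists. Keeping the wider 50% of each list gave P2 SOX8 4.94% of members (all genes 7.6%), P2 SOX9 23.5% (13.8%), P17 SOX8 6.17% (7.16%), P17 SOX9 12.3% (8.39%), P17 H3K4me3 55.6% (28.3%) and P17 H3K27ac 59.3% (39%). Both SOX8 shares were then below those of all genes, where they had been above. With the widest P2 H3K27ac peaks in the number of the P17 list, 29.6% of members had that mark, against 40.5% of all genes. Peaks over a listed start gave 9.84% for P17 SOX8 and 9.84% for P17 SOX9.

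Peaks over the member and no other protein-coding gene, an alternative chosen after seeing the data, gave P2 SOX8 8.64% (all genes 8.66%), P2 SOX9 33.3% (16.7%), P2 H3K4me3 61.7% (32%), P2 H3K27ac 71.6% (69.5%), P17 SOX8 9.88% (7.15%), P17 SOX9 3.7% (8%), P17 H3K4me3 63% (32.9%) and P17 H3K27ac 59.3% (39.6%). The P17 SOX9 share was then below that of all genes. These shares were not restricted to genes with H3K4me3. Genes of the members' lengths without regard to H3K4me3 put P2 SOX9 at 60% of members, against 23.7%. The median P2 H3K27ac width of 2465 bp became 4226.5 bp as summed bases in the window. No paired analysis was possible because the lists name no replicate, and for the same reason no replicate could be left out. The lists carry no height, no IgG list was analysed here and depth is unknown, so a peak that is not listed may lie under the threshold.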
